A study of Mus musculus with 12 samples.

Results

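The genes described here are 8 genes of the nuclear lamina and nuclear envelope, Lmna, Lmnb1, Lmnb2, Lbr, Sun1, Sun2, Emd, and Tmpo. They were chosen by name for what their proteins do, by a rule that uses no measured value. All 8 were found by symbol among the 23309 genes of the table, and all 8 were among the 11516 genes that reached 1 FPKM (mapped fragments scaled by transcript length and library size) in at least 2 of the 12 libraries and were tested. The libraries come from mouse myeloid progenitors on a C57BL/6 background, CD117+ bone marrow cells that were immortalized by a retrovirus carrying HoxB8 fused to the estrogen receptor and grown in IL-3 and estradiol (E2). The fusion holds the cells immature while E2 is present, and its withdrawal lets them differentiate. The 6 groups were wild-type cells (WT) and HMGN1-OE cells, from mice with a human HMGN1 transgene, each at 0 h (in E2) and at 36 h and 96 h after withdrawal of E2, with 2 libraries per group from polyA RNA. Every group, controls included, carries the HoxB8 fusion. The promoter of the transgene and the number of separate progenitor lines behind the libraries are not given in the sources used here. The p-values therefore rest only on the spread between these libraries. In the main tests that spread was taken from a trend over all tested genes and not from the gene itself.

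The nuclear lamina is a meshwork of intermediate filament proteins under the inner nuclear membrane. Lamins A and C, both products of Lmna, stiffen the nucleus, and the B-type lamins, encoded by Lmnb1 and Lmnb2, stay attached to the membrane. The lamin B receptor (LBR) holds heterochromatin at the envelope and also works as a sterol reductase. SUN proteins span the inner membrane and join nesprins of the outer membrane in the LINC complex, which ties the nucleus to the cytoskeleton. Emerin (Emd) and the LAP2 proteins (Tmpo) are LEM-domain proteins that bind the chromatin protein BAF. Mature neutrophils are known for a lobed, pliable nucleus with little lamin A and C, and loss of LBR is known to leave their nuclei poorly lobed.

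Promoter sequences from RefSeq (GRCm38.p6) are shown as examples for Lbr, Sun2, and Lmnb2, whose courses differed. Lbr and Sun2 lay higher against the median gene at 96 h than at 0 h in both genotypes, and Lmnb2 did not. Each is 300 bases around an annotated start, most of them upstream, written 5′ to 3′ on the strand of the gene. Capitals mark CCAAT boxes (CCAAT, or ATTGG for the other strand) and the cell cycle genes homology region (CHR, TTTGAA or TTCGAA, on either strand). The window of Lbr lies on the minus strand at chr1:181842352-181842651, that of Sun2 on the minus strand at chr15:79742487-79742786, and that of Lmnb2 on the minus strand at chr10:80918196-80918495.
Lbr: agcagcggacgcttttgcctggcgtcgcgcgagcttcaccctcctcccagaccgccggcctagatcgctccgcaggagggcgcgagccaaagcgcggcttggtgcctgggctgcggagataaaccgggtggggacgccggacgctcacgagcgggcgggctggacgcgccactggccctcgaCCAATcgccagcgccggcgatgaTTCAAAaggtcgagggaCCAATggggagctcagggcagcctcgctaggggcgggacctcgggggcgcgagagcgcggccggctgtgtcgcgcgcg
Sun2: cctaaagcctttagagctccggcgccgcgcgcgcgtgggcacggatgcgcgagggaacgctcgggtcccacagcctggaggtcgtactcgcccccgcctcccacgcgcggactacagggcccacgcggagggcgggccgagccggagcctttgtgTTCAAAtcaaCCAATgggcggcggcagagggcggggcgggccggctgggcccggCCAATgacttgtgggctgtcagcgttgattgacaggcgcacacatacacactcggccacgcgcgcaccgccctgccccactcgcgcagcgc
Lmnb2: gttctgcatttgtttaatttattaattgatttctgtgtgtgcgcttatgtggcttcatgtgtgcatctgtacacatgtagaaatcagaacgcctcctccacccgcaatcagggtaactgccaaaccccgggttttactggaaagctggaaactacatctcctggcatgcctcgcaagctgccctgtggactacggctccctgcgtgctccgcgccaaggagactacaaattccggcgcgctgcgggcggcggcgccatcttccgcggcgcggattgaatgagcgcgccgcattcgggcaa
The windows of Lbr and Sun2 each held 2 CCAAT boxes and 1 CHR match, and neither of the 2 windows of Lmnb2 held a match to any motif searched, of which the one shown is the second. Lmna, which also lay higher against the median gene at 96 h, had 1 CCAAT box and no CHR match over its 2 windows. Of 11 windows listed for 7 of the genes (that of Lmnb1 was not used here), 7 held a CCAAT box and 3 held a CHR match, those of Lbr and Sun2 and a window of Tmpo. Over all 32851 windows of the same length the shares were 37.4% and 19.2%. An E2F motif (TTTCCCGC, TTTCGCGC, TTTGCCGC, or TTTGGCGC) was in 1 window, of Tmpo, against 2.3% of all windows. A PU.1 motif (GAGGAAG) was in 1 window, also of Tmpo, against 13.6%. The C/EBP motif TTNNGCAA was in 0 of the 11 windows, against 10.8% of all. No match overlapped a match of another motif. These are matches of letters and say nothing of binding.

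Values are FPKM that the authors normalized to spiked-in ERCC RNAs added to RNA from a counted number of cells. A difference between groups is therefore meant per cell, and in these bulk samples fewer cells of a type and less RNA per cell cannot be told apart. The sum of FPKM over all genes was 680258 to 1442573 in the 8 libraries at 0 h and 36 h, and 228955 to 559135 in the 4 libraries at 96 h. The lowest sum belonged to the second wild-type library at 96 h ("first" and "second" follow the column order and only name the libraries). In that group the higher library was 2.27 times the lower for the median tested gene, against 1.1 to 1.9 in the other 5 groups. The table holds no read counts, so the depth is unknown. Mouse Hmgn1, the gene the transgene adds to, was at 85.7 and 141 FPKM in WT and at 201 and 97.6 FPKM in HMGN1-OE at 0 h, and these libraries overlapped. Reads of the human transgene have no row in the table, so this is no check of the genotype.

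The labelled cell type, myeloid cells, was checked against marker genes. The summed FPKM of 6 granulocyte-monocyte progenitor markers was 5373 to 15860 at 0 h and 117.5 to 2302 at 96 h. That of 10 markers of maturing neutrophils was 1173 to 2955 at 0 h and 67000 to 173000 at 96 h, and 8 of the 10 rose and 2 fell in WT, and 9 rose and 1 fell in HMGN1-OE, beside 4.31% of all tested genes called higher and 77.2% called lower in WT, and 5.08% and 62.4% in HMGN1-OE. S100a9 was listed at 0.0511 FPKM in the first wild-type library at 96 h, where its partner S100a8 is among the highest genes of the table, so a very low listed value need not be a low level. Of other cell types, the eosinophil, basophil, and mast cell markers summed to 387.2 to 750.9 at 0 h, 768.5 to 2594 at 36 h, and 297 to 2455 at 96 h, with 3 of 5 called higher and 1 lower at 96 h than at 0 h in WT, and 2 and 1 in HMGN1-OE. Its members moved apart, with Prg2 at 2.54 to 19.8 FPKM at 0 h and 186 to 1970 FPKM at 96 h, and Cpa3 at 255 to 540 and 39.1 to 168 FPKM. The monocyte and macrophage markers summed to 49.6 to 140 at 0 h and 49.24 to 72.68 at 96 h. Of the 4 tested 1 rose and 2 fell in WT and 2 rose and 2 fell in HMGN1-OE. Csf1r was at 0.324 to 1.13 FPKM at 0 h and 7.17 to 13.5 FPKM at 96 h. Emr1 went the other way, from 37.7 to 119 FPKM to 9.44 to 18.7 FPKM, as did Ly86, from 1.25 to 6.64 FPKM to 0.0363 to 0.588 FPKM. Erythroid markers summed at 0 h and 96 h to 3.558 to 40.36 and 0.8574 to 7.067, and lymphoid markers to 1.194 to 1.853 and 0.3564 to 0.4857. Stromal and endothelial markers, nearly all of it Pecam1, summed to 84.22 to 269.6 and 11.59 to 25.17. Cd3e, Col3a1, and Cdh5 stayed at or under 0.15 FPKM in all 12 libraries, and Col1a1 went from 0.128 to 0.176 FPKM at 0 h to 0.614 to 1.05 FPKM at 96 h. The part of these shifts in the results that follow was not tested.

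Lmna was the lowest of the 8 genes per length in 11 of the 12 libraries, all but the second wild-type library at 96 h. In WT it was at 0.176 and 0.386 FPKM at 0 h, 1.41 and 0.232 FPKM at 36 h, and 1.11 and 3.59 FPKM at 96 h. In HMGN1-OE it was at 0.886 and 0.241 FPKM at 0 h, 1.08 and 1.32 FPKM at 36 h, and 1.54 and 1.98 FPKM at 96 h. Both libraries at 96 h lay above both at 0 h in each genotype, yet only 7 of the 12 libraries reached 1 FPKM. Among the tested genes of a library Lmna stood between the 1.2 and the 22.9 percentile, except in the second wild-type library at 96 h, where it stood at the 54.2 percentile.

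The B-type lamins had less FPKM at 96 h than at 0 h, although among the tested genes of a library Lmnb1 stayed at the 89.1 to 92.7 percentile throughout. Lmnb1 was at 97.4 and 179 FPKM in WT and 146 and 95.3 FPKM in HMGN1-OE at 0 h. At 96 h it was at 57.6 and 18.5 FPKM in WT and 45.5 and 61.9 FPKM in HMGN1-OE. No library at 96 h reached the lowest library at 0 h. Lmnb2 went from 22.5 and 49.6 FPKM at 0 h to 7.99 and 2.99 FPKM at 96 h in WT, and from 34.3 and 26.8 FPKM to 8.31 and 11.1 FPKM in HMGN1-OE. The second wild-type library at 96 h was the lowest of all 12 for both genes.

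Lbr, the membrane anchor of the B-type lamins, had 105 and 174 FPKM in WT and 164 and 106 FPKM in HMGN1-OE at 0 h. At 36 h it had 177 and 212 FPKM in WT and 136 and 130.02 FPKM in HMGN1-OE. At 96 h it had 86.4 and 28.9 FPKM in WT and 71.5 and 90.1 FPKM in HMGN1-OE. The libraries at 96 h lay below those at 0 h in both genotypes, and the second wild-type library was far below the other 3.

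The SUN genes differed from each other. Sun1 was at 18.3 and 33.0 FPKM in WT and 28.5 and 18.01 FPKM in HMGN1-OE at 0 h, and at 11.1 and 4.09 FPKM and 9.29 and 11.0 FPKM at 96 h. Sun2 was at 82.5 and 170.3 FPKM in WT and 111 and 63.9 FPKM in HMGN1-OE at 0 h. At 36 h Sun2 was at 272 and 186 FPKM in WT and 166 and 148 FPKM in HMGN1-OE, above both libraries at 0 h in each genotype. At 96 h it was at 151 and 69.5 FPKM in WT, overlapping the libraries at 0 h, and at 128 and 153 FPKM in HMGN1-OE, above them. All 4 libraries at 96 h lay within the range of the 4 at 0 h for Sun2 and below that range for Sun1.

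Emd and Tmpo, the LEM-domain members, were also lowest at 96 h. Emd went from 58.7 and 109 FPKM at 0 h to 31.1 and 15.1 FPKM at 96 h in WT, and from 94.5 and 61.2 FPKM to 24.9 and 31.4 FPKM in HMGN1-OE. Tmpo went from 116 and 215 FPKM to 72.1 and 23.9 FPKM in WT, and from 188 and 119.7 FPKM to 56.5 and 67.5 FPKM in HMGN1-OE. No library of 96 h overlapped those of 0 h for either gene. The 12 values of each gene are drawn in the plot of levels by time.

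**Figure D1:**
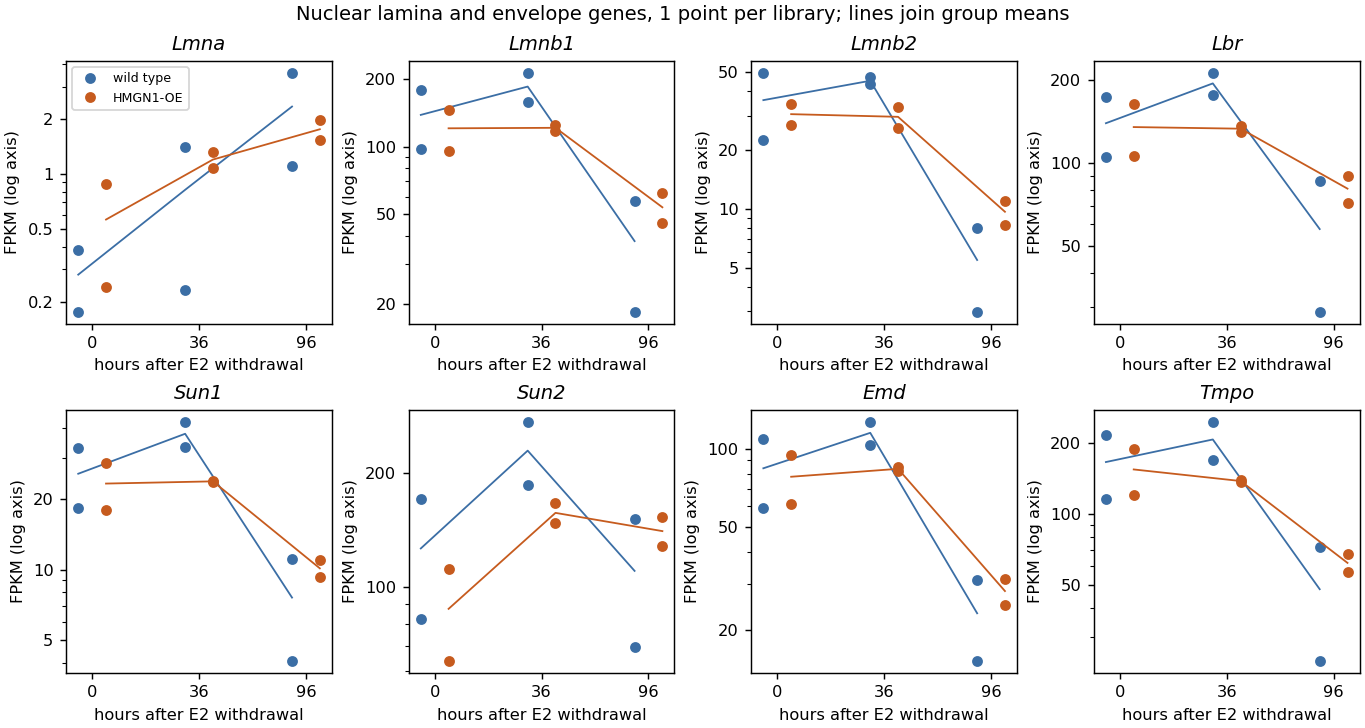
FPKM (log axis) of the 8 genes against hours after E2 withdrawal, 1 point per library, WT in blue and HMGN1-OE in orange, with lines joining the means of 2 libraries. Lmna stays between 0.176 and 3.59 FPKM with its highest means at 96 h, Sun2 at 96 h lies between 69.5 and 153 FPKM, within its range at 0 h, and the other 6 genes are lowest at 96 h.

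The order of the 6 group means placed both 96 h groups lowest for Lmnb1, Lmnb2, Lbr, Sun1, Emd, and Tmpo, with WT at 96 h last and WT at 36 h first. In that order the step from the lowest earlier group to HMGN1-OE at 96 h was free of overlap for all 6 genes, and the step from HMGN1-OE to WT at 96 h was free of overlap for Lmnb2 alone. WT at 36 h and at 0 h, the highest groups, were free of overlap for Lbr and Sun1. For Lmna, WT at 96 h came first and WT at 0 h last, and neighbours overlapped except HMGN1-OE at 96 h and at 36 h. The order for Sun2 ran from WT at 36 h to HMGN1-OE at 0 h, and only WT and HMGN1-OE at 36 h, its highest groups, were free of overlap.

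The comparison of 0 h with 96 h sets progenitors in E2 against cells 96 h after its withdrawal. The differences of 7 of the 8 genes in WT and 6 in HMGN1-OE were below 0, called or not, as were those of most tested genes. Differences are given as log2(FPKM + 1) with standard errors (SE), tested with limma across all tested genes, two-sided, with Benjamini-Hochberg adjustment, and called at an adjusted p-value under 0.05. In WT, 6 of the 8 genes fell and Lmna rose, against 77.2% of all tested genes called lower and 4.31% called higher. In HMGN1-OE, 4 of the 8 fell and Lmna rose, against 62.4% called lower and 5.08% called higher. The median of the 8 genes was -1.77 in WT and -1.11 in HMGN1-OE, beside -1.75 and -1.28 for all tested genes.

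Lmnb2 had the largest fall of the 8 on this scale. It fell by 2.53 ± 0.52 on the log2 scale in WT (adjusted p = 3.48e-06, limma), a 6.58-fold drop of mean FPKM. In HMGN1-OE it fell by 1.56 ± 0.52 (adjusted p = 0.00532, limma), a 3.15-fold drop. Lmnb1 fell by 1.98 ± 0.57 in WT (adjusted p = 0.000884, limma), and its difference of -1.14 ± 0.57 in HMGN1-OE missed the threshold (adjusted p = 0.0649, 95% interval -2.25 to -0.02). Mean Lmnb1 at 0 h was 3.64 times that at 96 h in WT and 2.24 times in HMGN1-OE.

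Emd fell by 1.83 ± 0.55 in WT (adjusted p = 0.00155, limma) and fell by 1.41 ± 0.55 in HMGN1-OE (adjusted p = 0.0188, limma). Tmpo fell by 1.90 ± 0.57 (adjusted p = 0.00157, limma) and fell by 1.27 ± 0.57 (adjusted p = 0.0414, limma), and Sun1 fell by 1.70 ± 0.51 (adjusted p = 0.00143, limma) and fell by 1.09 ± 0.51 (adjusted p = 0.0479, limma). All 3 genes were below their levels at 0 h in every library at 96 h. Lbr fell by 1.41 ± 0.57 in WT (adjusted p = 0.0184, limma), and its difference in HMGN1-OE was -0.71 ± 0.57 (adjusted p = 0.256, limma). Mean Lbr at 0 h was 2.42 times that at 96 h in WT and 1.67 times in HMGN1-OE, the smallest ratios among the 6 genes that were lower in every library at 96 h.

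Sun2 was not called in either genotype. Its difference was -0.21 ± 0.58 in WT (adjusted p = 0.737, 95% interval -1.34 to 0.93, limma) and 0.72 ± 0.58 in HMGN1-OE (adjusted p = 0.251, 95% interval -0.41 to 1.86, limma). Lmna rose by 1.28 ± 0.34 in WT (adjusted p = 0.000271, limma) and rose by 0.85 ± 0.34 in HMGN1-OE (adjusted p = 0.0201, limma). Its mean at 96 h was 8.36 times that at 0 h in WT and 3.13 times in HMGN1-OE. These ratios rest on means under 1 FPKM at 0 h, and in WT on 3.59 FPKM in the second library at 96 h, beside 1.11 FPKM in the first.

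These calls rest on few libraries. Without the second wild-type library at 96 h, 2 genes were called in WT in place of 7, Lmnb2 (-1.94) and Emd (-1.34), and Lmna stood at 0.72 (adjusted p = 0.0919, limma). In HMGN1-OE, leaving out the first library at 96 h left 0 of 5 calls, leaving out the second at 96 h (Lmnb2) or the first at 0 h (Lmna) left 1, and leaving out any 1 of the 4 libraries at 36 h, of either genotype, left 3, without Sun1 and Tmpo. Lmna in HMGN1-OE stood at 0.55 (adjusted p = 0.242, limma) without the second library at 0 h. The calls of Sun1 and Tmpo in HMGN1-OE were also lost with no filter (adjusted p = 0.118 and 0.122, limma), and those in WT with only the groups compared (adjusted p = 0.0968 and 0.0969, limma), as were those of Lmnb1, Lbr, and Emd in WT (adjusted p = 0.0814, 0.211, and 0.0974, limma). Lbr in WT stood at -1.05 (adjusted p = 0.153, limma) without the second library at 0 h, and its call was also lost with no filter (adjusted p = 0.0598, limma). The difference of Sun2 in WT, not called, was 0.31 without that library and 0.35 without the second at 96 h.

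Because the typical gene fell, each library was also centred on the median of its tested genes, which asks how a gene moved against the rest of the transcriptome and not per cell. On this scale 33.8% of all genes were called lower and 36.5% higher at 96 h in WT, and 32.5% and 30.9% in HMGN1-OE. Of the 8 genes, 3 were called higher in each genotype, Lmna, Lbr, and Sun2, and Lmnb2 was called lower in WT. Sun2 rose by 1.64 in WT (adjusted p = 0.000205, limma) and by 2.04 in HMGN1-OE (adjusted p = 8.45e-05, limma). Its centred level was 2.06 to 2.64 in the 4 libraries at 0 h and 4.12 to 4.26 in the 4 at 96 h, a gap wider than any spread within a group at these times.

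Lbr rose against the median by 0.43 in WT (adjusted p = 0.0379, limma) and by 0.60 in HMGN1-OE (adjusted p = 0.0102, limma). Its centred level was 2.67 to 2.89 at 0 h and 2.88 to 3.46 at 96 h, and the second wild-type library at 96 h, at 2.88, was above both wild-type libraries at 0 h but not above the highest of HMGN1-OE. Lmna rose by 3.13 in WT (adjusted p = 0.00196, limma) and by 2.16 in HMGN1-OE (adjusted p = 0.0154, limma). Its centred level was -4.31 to -3.56 at 0 h, -1.41 and -1.48 in HMGN1-OE at 96 h, and -1.91 and 0.18 in WT at 96 h, where the second library stood far above the first. A gene listed at a single constant value would move by 1.85 in WT and 1.31 in HMGN1-OE on the centred scale. The centred change of Lbr was smaller than that of such a gene in both genotypes, and that of Lmna was larger in both. For Sun2 it was smaller in WT and larger in HMGN1-OE.

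Lmnb2 fell against the median by 0.68 in WT (adjusted p = 0.00138, limma), and its centred difference in HMGN1-OE was -0.25 (adjusted p = 0.117, limma). Its centred level was 0.64 to 0.88 at 0 h, -0.03 and 0.18 in WT at 96 h, and 0.47 and 0.54 in HMGN1-OE at 96 h. The other 4 genes stayed close to the median gene. The centred differences of Lmnb1, Sun1, Emd, and Tmpo lay between -0.13 and 0.14 in WT and between -0.10 and 0.22 in HMGN1-OE. None passed the threshold by limma, with adjusted p-values from 0.255 to 0.888 in WT and from 0.0998 to 0.83 in HMGN1-OE.

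**Figure D2:**
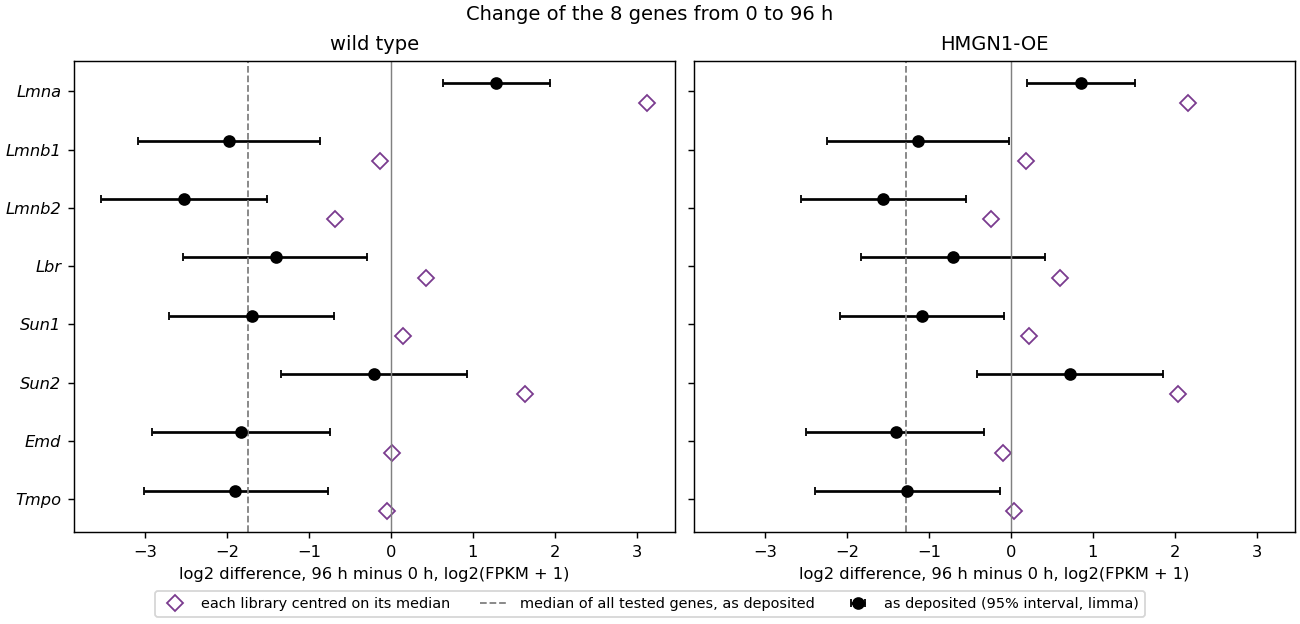
Difference from 0 h to 96 h of the 8 genes in WT (left) and HMGN1-OE (right) on the log2(FPKM + 1) scale, with filled points for the values as deposited (bars are 95% intervals from limma), open diamonds for libraries centred on their median, and a dashed line for the median of all tested genes. As deposited, 6 genes lie around the line at -1.75 in WT, Sun2 at -0.21 and Lmna at 1.28 lie to its right, and centring brings Lmnb1, Sun1, Emd, and Tmpo close to 0.

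By time, the fall lay after 36 h. Between 0 h and 36 h, 0 of the 8 genes were called in WT and 0 in HMGN1-OE by limma, beside 0.617% and 1.8% of all tested genes. At an unadjusted p under 0.05 it was also 0 in each genotype, beside 378 and 578 of the 11516 tested genes. In WT all 8 were above their mean at 0 h, by 0.36 to 0.92 on the log2 scale, as was the median of all genes at 0.47. Sun2 had the highest value in both genotypes, 0.92 ± 0.58 in WT (adjusted p = 0.589, limma) and 0.89 ± 0.58 in HMGN1-OE (adjusted p = 1.0, limma), and its libraries at 36 h lay above those at 0 h in each.

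Between 36 h and 96 h, 6 genes fell and Lmna rose in WT, beside 86.3% of all genes called lower and 3.15% called higher. In HMGN1-OE 3 fell, Lmnb2, Sun1, and Emd, beside 64.9% called lower, and 0 rose, beside 4.02%. At an unadjusted p under 0.05 (limma) 0 rose as well. In either direction 5 of the 8 passed it, beside 8341 of the 11516 tested genes. Lmnb2 fell by 2.95 ± 0.52 in WT (adjusted p = 3.77e-08, limma), an 8.26-fold drop of the mean, and fell by 1.52 ± 0.52 in HMGN1-OE (adjusted p = 0.00656, limma), a 3.06-fold drop. Lmna rose by 0.85 ± 0.34 in WT (adjusted p = 0.0132, limma), but its libraries at 36 h and 96 h overlapped, and without the second library at 96 h the difference was 0.29 (adjusted p = 0.48), without the second at 36 h 0.37 (adjusted p = 0.362). With no filter this call of Lmna was lost as well (adjusted p = 0.159, limma). Sun2 stood at -1.13 ± 0.58 in WT (adjusted p = 0.0574, limma), with both libraries at 96 h below both at 36 h, and at -0.16 ± 0.58 in HMGN1-OE (adjusted p = 0.805, limma). Of the 3 calls in HMGN1-OE, 0 were left without the first library at 36 h or the first at 96 h, and 1, Lmnb2, without the second at 36 h, whereas 5 were called without any 1 of the WT libraries at 0 h or 96 h.

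The comparison of HMGN1-OE with WT cells asks whether the transgene moved the envelope genes. By limma, 0 of the 8 were called at 0 h, 36 h, or 96 h, beside 1.36%, 1.26%, and 0.669% of all tested genes. At an unadjusted p under 0.05 it was also 0 each time, beside 457, 593, and 314 of the 11516 tested genes. At 0 h all 8 overlapped between the genotypes, with differences from -0.49 (Sun2, 95% interval -1.62 to 0.65) to 0.26 (Lmna, 95% interval -0.40 to 0.92). The intervals are wide, and all but that of Lmna reach past 1 on the log2 scale in at least 1 direction.

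At 36 h all but Lmna had both HMGN1-OE libraries below both WT libraries, as did 84.4% of all tested genes. The 7 differences lay between -0.64 (Sun1) and -0.45 (Emd), around the median of -0.54 for all genes. Centred on the library median, these 7 lay between -0.06 and 0.13. At 96 h the differences of these 7 lay between 0.35 (Emd) and 0.82 (Lmnb2), beside a median of 0.36 for all genes, and that of Lmna was -0.18 (95% interval -0.83 to 0.48). Only Lmnb2 had HMGN1-OE libraries (8.31 and 11.1 FPKM) free of overlap with WT (7.99 and 2.99 FPKM), and its difference was 0.82 ± 0.52 (adjusted p = 0.859, limma). At 96 h 3 of the 6 progenitor markers were called higher in HMGN1-OE, with summed levels of 790.3 and 2302 FPKM against 669.5 and 117.5 FPKM in WT. Of the 5 eosinophil, basophil, and mast cell markers 2 were called lower, with sums of 297 and 910.5 FPKM against 2455 and 1209 FPKM. Of the 10 neutrophil markers 1 was called higher and 1 lower. At 0 h 2 of the 6 progenitor markers were called lower, and 1 of the 2 tested erythroid markers higher. At 36 h 4 of the 10 neutrophil markers and 1 of the 5 eosinophil, basophil, and mast cell markers were called lower. Of all tested genes 1.36%, 1.26%, and 0.669% were called at 0 h, 36 h, and 96 h. With libraries centred, 0 of these markers were called, beside 12, 6, and 7 of the 11516 tested genes. The part of these shifts in the values of the 8 genes was not tested.

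A difference in timing between the genotypes was tested with the interaction of genotype and time. For 0 h to 96 h, 0 of the 8 genes were called by limma, beside 0.677% of all tested genes. At an unadjusted p under 0.05 it was also 0, beside 334 of the 11516 tested genes. The estimates ran from -0.44 (Lmna) to 0.96 (Lmnb2, 95% interval -0.47 to 2.39), with a median of 0.67 beside 0.51 for all genes. For 36 h to 96 h, a comparison added after the values were seen, 0 were called, beside 0.547% of all genes. At an unadjusted p under 0.05 (limma) there was 1 gene, beside 520 of the 11516 tested genes. It was Lmnb2, at 1.43 ± 0.73 (adjusted p = 0.355, limma). The median of the 8 was 1.13 beside 0.92 for all genes, and centred it was 0.14 beside -0.06. The falls of Lmnb2 in WT and HMGN1-OE were therefore not told apart after adjustment.

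**Figure D3:**
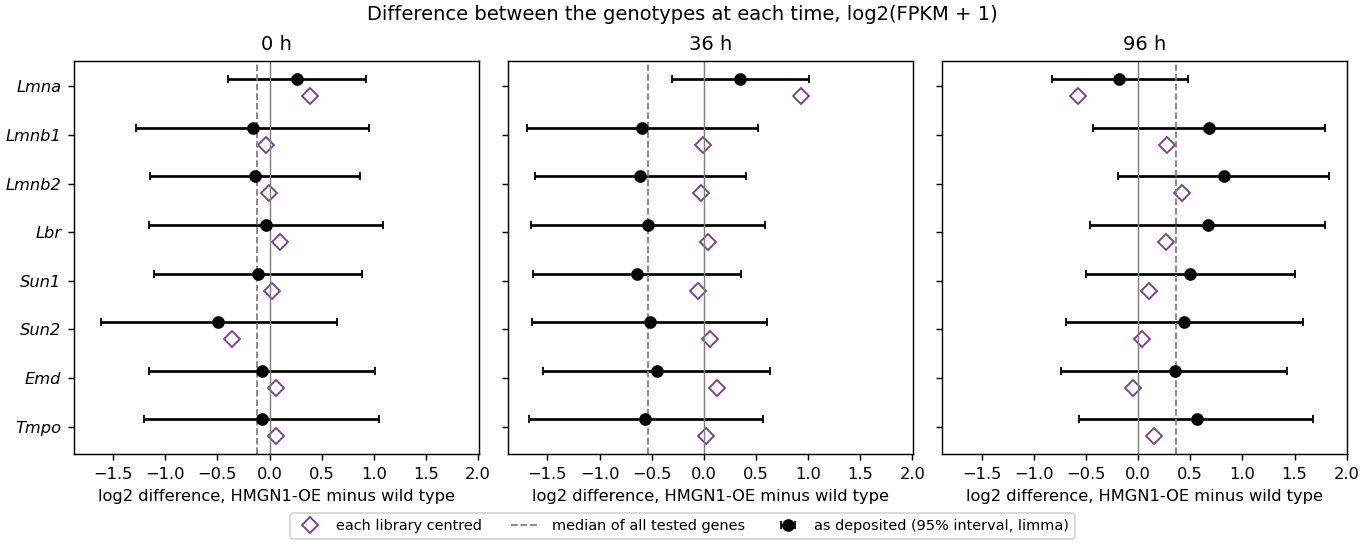
Difference between HMGN1-OE and WT for the 8 genes at 0 h, 36 h, and 96 h on the log2(FPKM + 1) scale, with filled points and 95% intervals (limma) as deposited, open diamonds for libraries centred on their median, and a dashed line for the median of all tested genes. All intervals cross 0, and most points follow the dashed line, which stands at -0.12, -0.54, and 0.36.

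A ratio between a pair of the genes within a library does not depend on how libraries were scaled to each other by a single factor. The loess normalization of the authors can differ with the level of a gene, so the ratios can still depend on it. The Lmnb1 to Lmnb2 ratio of FPKM was 3.56 to 4.33 in the 4 libraries at 0 h, 3.62 to 4.51 at 36 h, and 5.48 to 7.2 at 96 h. All 4 libraries at 96 h lay above the 8 earlier ones, so Lmnb2 stood lower relative to Lmnb1 in each. At 96 h the ratio was 7.2 and 6.18 in WT and 5.48 and 5.6 in HMGN1-OE, free of overlap. This difference was not tested.

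The Lbr to Lmnb2 ratio moved further, from 3.51 to 4.79 at 0 h and 4.07 to 5.01 at 36 h to 8.15 to 10.8 at 96 h. The Sun2 to Sun1 ratio was 3.55 to 5.17 at 0 h, 4.37 to 8.18 at 36 h, and 13.6 to 17.0 at 96 h. In HMGN1-OE it was 6.97 and 6.23 at 36 h, above the 3.9 and 3.55 at 0 h, whereas in WT the libraries at 36 h, 8.18 and 4.37, straddled those at 0 h. Sun2 also passed Lmnb1, at 0.67 to 0.951 times its FPKM at 0 h and 2.47 to 3.76 times at 96 h.

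The Lmnb1 to Lmna ratio spread widely, and Lmna reached 1 FPKM in only 7 of the 12 libraries. It was 164 to 554 at 0 h, 88.4 to 914 at 36 h, and 5.15 to 51.9 at 96 h, with 29.5 and 31.2 in HMGN1-OE and 51.9 and 5.15 in WT. The Tmpo to Emd ratio was 1.95 to 1.99 at 0 h, 1.62 to 1.93 at 36 h, and 1.58 to 2.32 at 96 h. The libraries of the LEM-domain pair at 96 h lay on both sides of those at 0 h, unlike the other ratios.

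**Figure D4:**
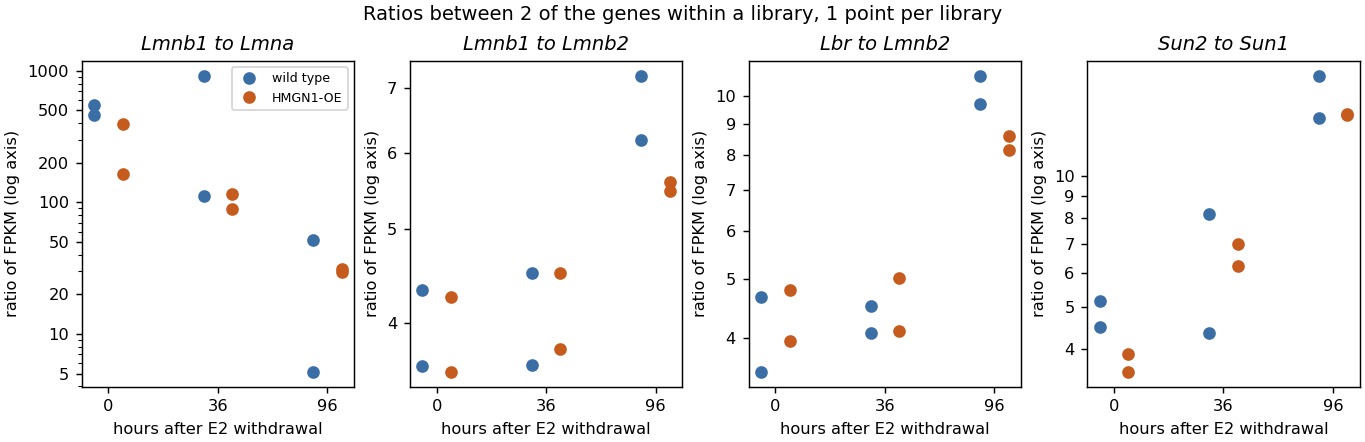
Ratios of FPKM (log axes) between pairs of the genes within each of the 12 libraries against hours after E2 withdrawal, WT in blue and HMGN1-OE in orange. Lmnb1 to Lmnb2, Lbr to Lmnb2, and Sun2 to Sun1 are higher in all 4 libraries at 96 h than in the 8 earlier libraries, and Lmnb1 to Lmna is lower at 96 h than in all of them.

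Genes with the most similar course were sought by Pearson r of centred log2(FPKM + 1) over the 12 libraries. The libraries fall into 6 groups of 2 and share their depth and scaling, so r is a description. Lmnb1 was most like Ccna2 (r = 0.945), which encodes cyclin A2, Aurkb (0.925), which encodes the mitotic kinase Aurora B, and Smc1a (0.918), which encodes a cohesin subunit. Tmpo was most like Whsc1 (0.946), Fbxo5 (0.897), and the condensin gene Ncapg (0.873), and Sun1 like the condensin gene Ncapd2 (0.933), the kinetochore gene Nuf2 (0.895), and Setd8 (0.895).

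Lbr was most like Pih1d1 (0.986), Tacc3 (0.974), which encodes a spindle protein, and Ap2m1 (0.974). Lmnb2 was most like Ccdc41 (0.943), Ap1ar (0.941), and Fignl1 (0.94). The most similar genes to Sun2 were Adap1 (0.996), the cytokine receptor kinase gene Jak2 (0.995), and Bnip3l (0.994), which encodes a mitophagy receptor. Those for Lmna were Lpin1 (0.987), Fgd6 (0.986), and Rab11fip3 (0.985), and those for Emd were Slc7a11 (0.881), Asb8 (0.853), and Slc19a2 (0.832). The centred level of Lmna also followed the negative of the library median itself (r = 0.95 over 12 libraries), that of Sun2 did so with r = 0.76 and that of Lbr with r = 0.67, whereas that of Lmnb2 went the other way (r = -0.83).

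Other genes of the envelope were taken from lists by function. For the LINC partners, the nesprins and Sun3, 4 of 5 were tested. From 0 h to 96 h 1 rose and 2 fell in each genotype, beside the shares of all genes given above. Syne1, which encodes nesprin 1, was at 0.183 to 0.207 FPKM in the 4 libraries at 0 h and at 6.85 and 3.09 FPKM in WT and 2.60 and 1.86 FPKM in HMGN1-OE at 96 h. It rose by 2.25 ± 0.33 in WT (adjusted p = 1.12e-10, limma) and rose by 1.43 ± 0.33 in HMGN1-OE (adjusted p = 7.5e-05, limma). Syne1 reached 1 FPKM only at 96 h. It was therefore tested only through the libraries where it was high, and its p-values carry that choice. Syne3, which encodes nesprin 3, fell by 1.71 ± 0.50 in WT and fell by 1.09 ± 0.50 in HMGN1-OE.

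All 13 genes of a list of other inner nuclear membrane and LEM proteins were tested, and 13 fell in WT and 8 in HMGN1-OE, beside 77.2% and 62.4% of all genes. Their median was -1.68 in WT, close to the -1.75 of all genes, and against the library median 5 rose and 4 fell in each genotype. Of all genes, 36.5% rose and 33.8% fell on that scale in WT, and 30.9% and 32.5% in HMGN1-OE. Banf1, which encodes BAF, the partner of emerin and the LAP2 proteins, moved furthest of the list in WT. It fell by 3.28 ± 0.59 in WT (adjusted p = 1.72e-07, limma) and fell by 2.19 ± 0.59 in HMGN1-OE (adjusted p = 0.000746, limma). It was at 305 to 568 FPKM at 0 h and 23.5 to 108 FPKM at 96 h. Tor1aip1, which encodes LAP1, moved least in WT, where it fell by 1.11 ± 0.52 (adjusted p = 0.0427, limma), and stood at -0.64 ± 0.52 in HMGN1-OE (adjusted p = 0.257, limma).

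Of 5 genes for processing of prelamin A, 4 fell in each genotype, beside 77.2% and 62.4% of all genes. Against the library median 4 fell in each as well, beside 33.8% of all genes in WT and 32.5% in HMGN1-OE. Fntb, which encodes a subunit of protein farnesyltransferase, fell by 2.69 ± 0.46 in WT and fell by 1.90 ± 0.46 in HMGN1-OE. Zmpste24, whose protease releases mature lamin A, stood at -0.78 ± 0.55 in WT (adjusted p = 0.178, limma) and -0.60 ± 0.55 in HMGN1-OE (adjusted p = 0.319, limma). Against the library median it rose by 1.06 and by 0.71.

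All 28 tested genes of the 29 on the list of nuclear pore genes fell in both genotypes, beside 77.2% and 62.4% of all genes. Their median was -2.69 in WT beside -1.75 for all genes. Against the library median 27 of the 28 also fell in WT and 24 in HMGN1-OE, beside 33.8% and 32.5% of all genes. Nup85 moved furthest in WT and fell by 3.73 ± 0.55 in WT (adjusted p = 2.25e-10, limma), from 90.3 and 155 FPKM to 14.8 and 4.10 FPKM. Nup98 moved least in WT and fell by 1.99 ± 0.51 (adjusted p = 0.000201, limma), and centred it stood at -0.14 (adjusted p = 0.172).

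Of 5 genes of heterochromatin tethers, 4 fell in each genotype, beside 77.2% and 62.4% of all genes. Their median was -2.82 in WT and -2.13 in HMGN1-OE, beside -1.75 and -1.28 for all genes. Against the library median 4 also fell in each, beside 33.8% and 32.5% of all genes. Cbx1, which encodes HP1 beta, a partner of LBR, fell by 3.03 ± 0.54 in WT and fell by 2.50 ± 0.54 in HMGN1-OE, whereas Prr14 stood at -1.05 ± 0.53 (adjusted p = 0.0591, limma) and -0.64 ± 0.53 (adjusted p = 0.275, limma). Of 6 proliferation genes, 5 fell in WT and 3 in HMGN1-OE, beside 77.2% and 62.4% of all genes. Against the library median they went both ways, with 1 higher and 2 lower in WT and 2 higher and 1 lower in HMGN1-OE. The shares of all genes on that scale were 36.5% higher and 33.8% lower in WT, and 30.9% and 32.5% in HMGN1-OE. Mcm2, a subunit of the replicative helicase, fell by 2.85 ± 0.56 and fell by 1.95 ± 0.56, and Mki67 stood at -0.68 ± 0.57 (adjusted p = 0.256, limma) and 0.01 ± 0.57 (adjusted p = 0.991, limma). Of the 61 tested genes on these 6 lists, 0 were called between the genotypes at 0 h, 36 h, or 96 h by limma. The shares of all tested genes were 1.36%, 1.26%, and 0.669%. At an unadjusted p under 0.05 (limma) there were 0, 0, and 1 (Syne1), beside 457, 593, and 314 of the 11516 tested genes.

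**Figure D5:**
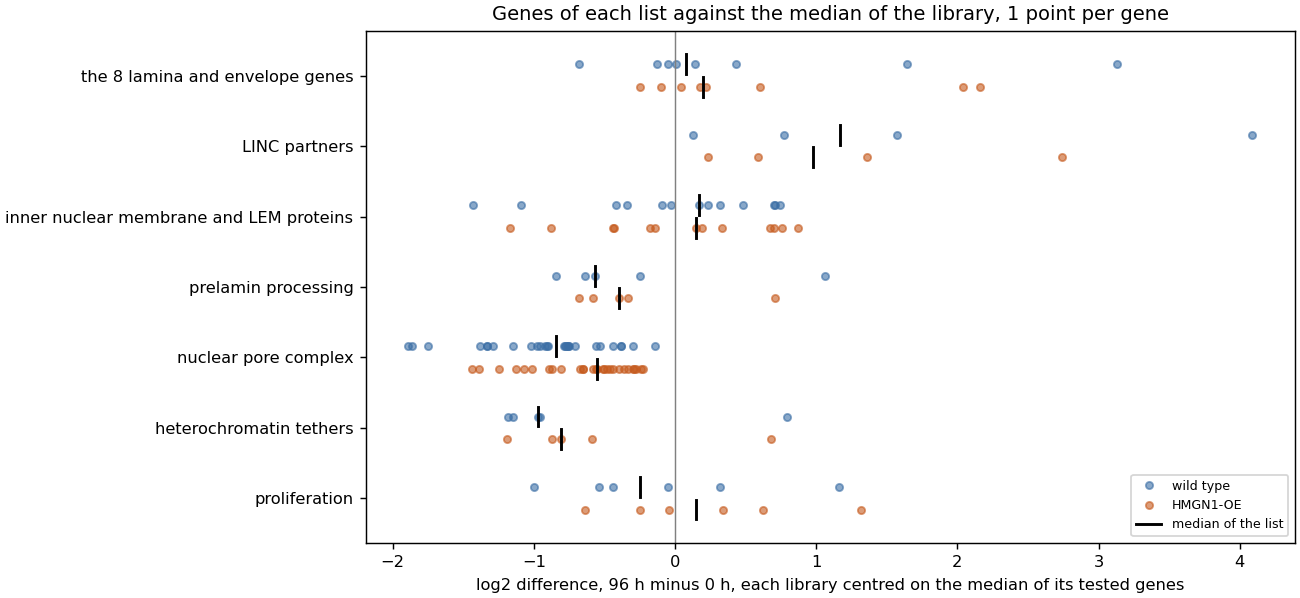
Difference from 0 h to 96 h of each gene against the median of its library (log2 scale), for the 8 genes and the 6 lists, WT in blue and HMGN1-OE in orange, with black bars for list medians. All 28 nuclear pore genes lie left of 0 in both genotypes, whereas the 8 lamina and envelope genes spread from -0.68 to 3.13 in WT.

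The genes lie on chromosomes 3 (Lmna), 18 (Lmnb1), 10 (Lmnb2 and Tmpo), 1 (Lbr), 5 (Sun1), 15 (Sun2), and X (Emd). Some values can hold reads of neighbours, since the sources used here do not state that counting used the strand. In GENCODE vM21, Lbr overlaps Dnah14 on the opposite strand and Gm26004 on its own, Sun1 overlaps 4930520M14Rik, Sun2 overlaps Gm16575, and Tmpo overlaps Gm26765, each on the opposite strand. Emd overlaps the pseudogene Gm14686 on its own strand. Lmna, Lmnb1, and Lmnb2 overlap no other gene there. The table gives 1 value per gene, so lamin A and lamin C, and the forms of LAP2, cannot be told apart.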

How the data were processed

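PolyA RNA from 12 libraries of counted cells was sequenced by the authors after addition of ERCC spike-in RNA. The deposited table gives 1 FPKM value per gene and library, which the authors normalized to the spike-ins by loess, and 92 ERCC rows were left out of the tests. The submitters' processing notes name HISAT, Cufflinks 2.0.0, and mm9, whereas the study's methods name Bowtie. Counts were not used here, and the depth is unknown.

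Libraries were assigned to genotype and time by column name. Genes that reached 1 FPKM in 2 or more libraries were tested on log2(FPKM + 1), a scale that understates changes of low genes, with limma 3.58.1 (R 4.3.3): 6 group means, variance trend, two-sided, Benjamini-Hochberg adjustment over 11516 genes. The prior degrees of freedom were infinite, so the spread of a gene itself did not enter its p-value. The procedure was tested on simulated data. The text names the 8 genes, the gene of each list with the highest and the lowest difference from 0 h to 96 h in WT, list genes called between genotypes, and the 3 most similar genes by Pearson r. The genes and lists were chosen with earlier results of these data known. Alternatives were another pseudocount, filters, centring, quantile normalization, other variance models, only the groups compared, and each library left out. Motifs were searched with Python 3.11.15. The levels of some single marker genes are not reported here.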

Additional observations from a re-analysis of the deposited data

How the results depend on the processing

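No paired analysis was possible because the digits in the column names are not the replicate numbers of the labels, so no library could be tied to a number. The 96 h minus 0 h comparison in WT called 7 of the 8 genes. It called 4 with libraries centred on their median and 2 with only the groups compared, and 2 to 7 with 1 library left out. In HMGN1-OE the same comparison called 5, and 2 with no filter or no moderation, 3 with a mean of at least 5 FPKM or with centring, and 0 to 6 with 1 library left out. The 96 h minus 36 h comparison called 7 in WT, 3 with centring, and 6 to 8 with 1 library left out. In HMGN1-OE it called 3, 6 with only the groups compared, 5 without trend, and 0 to 5 with 1 library left out. Comparisons of the genotypes, of 36 h with 0 h, and of the interactions called 0 under every setting tried (0 to 0 with 1 library left out). Under a mean of at least 5 FPKM, Lmna could not be tested.

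Centring and quantile normalization, which remove the fall of the median gene by construction, changed directions, and no other setting turned a called difference. With centring the 96 h minus 36 h difference was 0.40 for Lbr, 0.02 for Sun1, 1.20 for Sun2, and 0.07 for Tmpo in WT, and 0.62 for Lbr, 0.18 for Sun1, 1.18 for Sun2, 0.17 for Lmnb1, and 0.20 for Tmpo in HMGN1-OE. The 96 h minus 0 h difference was then 0.43 for Lbr, 0.14 for Sun1, 1.64 for Sun2, and 0.01 for Emd in WT, and 0.60 for Lbr, 0.22 for Sun1, 0.04 for Tmpo, and 0.18 for Lmnb1 in HMGN1-OE. After quantile normalization the 96 h minus 36 h difference in WT was 0.19 for Lmnb1, 0.71 for Lbr, 0.09 for Sun1, 1.48 for Sun2, 0.20 for Emd, and 0.38 for Tmpo, and in HMGN1-OE 0.41 for Lmnb1, 0.88 for Lbr, 0.26 for Sun1, 1.36 for Sun2, and 0.43 for Tmpo. The 96 h minus 0 h difference was 0.14 for Lmnb1, 0.71 for Lbr, 0.19 for Sun1, 1.87 for Sun2, 0.17 for Emd, and 0.22 for Tmpo in WT, and 0.37 for Lmnb1, 0.83 for Lbr, 0.28 for Sun1, 0.0014 for Emd, and 0.24 for Tmpo in HMGN1-OE. The rise of Lmna from 0 h to 96 h in HMGN1-OE missed the threshold with no filter (adjusted p = 0.195), without trend (adjusted p = 0.106), and with no moderation (adjusted p = 0.159, limma for all), and that from 36 h to 96 h in WT with no filter (adjusted p = 0.159), without trend (adjusted p = 0.0856), and with no moderation (adjusted p = 0.134). The fall of Sun1 from 0 h to 96 h in HMGN1-OE missed it with a pseudocount of 0.1 (adjusted p = 0.0547) and no moderation (adjusted p = 0.0931), and that of Tmpo with a mean of at least 5 FPKM (adjusted p = 0.0502) and no moderation (adjusted p = 0.0991). The fall of Lbr from 0 h to 96 h in WT missed it with no moderation (adjusted p = 0.0519), and that of Sun1 from 36 h to 96 h in HMGN1-OE with no filter (adjusted p = 0.098) and no moderation (adjusted p = 0.0788). The causes were not tested.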
